A study of Mus musculus with 8 samples.

Results

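Cathepsins are proteases that are best known from the lysosome. The 10 cathepsin genes described here (Ctsa, Ctsb, Ctsc, Ctsd, Ctsf, Ctsh, Ctsk, Ctsl, Ctss and Ctsz) were taken by their gene symbol, with every probe that carries it, from an array table of 18138 symbols and 25697 probes. They had 17 probes among them. The RNA came from primary mouse aortic smooth muscle cells, grown out of explants of several aortas, and each culture had been transfected with an oligonucleotide at 5 nM by a lipid reagent, RNAiMAX. In 3 samples the oligonucleotide was a scrambled control, and in 3 samples it was a mimetic of moR-21, a microRNA-offset RNA that is cut from the same primary transcript as miR-21. The RNA was collected after 48 h. Control sample 1 and moR-21 sample 3 had a pair of arrays each, so that 8 arrays stood for 6 samples. Strain, sex and age of the aortas' donors are not given in the labels, which also do not say whether the samples were separate cultures, so the p-values measure the spread between these samples, which may be technical.

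Most cathepsins are made as inactive precursors, tagged with mannose 6-phosphate in the Golgi, carried by receptors to the acidic lysosome and activated there by removal of a propeptide. They digest proteins and other enzymes, and cathepsins released from vascular cells can cut elastin and collagen of the arterial wall. Ctsa is a serine carboxypeptidase that also holds beta-galactosidase and neuraminidase in a protective complex, Ctsd is an aspartic protease, and the other 8 members are cysteine proteases of the papain type.

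moR-21 lies at the 5′ side of miR-21 in the precursor. The RefSeq hairpin of mouse Mir21a (GRCm38.p6, chr11:86584067-86584158, minus strand) is shown to place it, with the 17 bases before miR-21a-5p in capitals. The exact ends of the mimetic were not read from the files used here.
Mir21a hairpin: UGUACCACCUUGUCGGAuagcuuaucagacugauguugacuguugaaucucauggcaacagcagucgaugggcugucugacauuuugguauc

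The promoters of some members carry a letter pattern that lysosomal genes often share. The E-box core CACGTG is part of the TCACGTGA element bound by TFEB, a regulator of lysosomal genes, and both patterns read the same on either strand. The RefSeq windows searched run from 250 bases before to 50 bases after a gene start. A window was listed for 8 of the 10 cathepsins, and none for Ctsb and Ctsh. CACGTG occurred in 4 of these 8 genes (Ctsa, Ctsd, Ctsf and Ctsl), or 4 of their 9 windows, against 7.15% of 32851 windows over all genes. The longer TCACGTGA, which contains CACGTG, occurred in 2 of the 8 (Ctsa and Ctsd), or 2 of the 9 windows, against 0.974% of all windows. A match is a description of the letters and not of binding. Ctsa has a pair of windows, and its matches lie at the later start, which falls inside the gene as annotated. The stretches of 30 bases below show the matches of Ctsa, Ctsf and Ctsd. Ctsa, at 1 of its 5 probes, and Ctsf had the highest changes among the members with a window. The log2 fold change of Ctsd was -0.05. The match of Ctsl, whose fitted log2 fold change was -0.21, is not shown. Capitals mark CACGTG, and coordinates are those of GRCm38.p6.
Ctsa (chr2:164833757-164833786, plus strand): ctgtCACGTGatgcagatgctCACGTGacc
Ctsf (chr19:4855074-4855103, plus strand): caccccgtggtcCACGTGcctcgcgtaaat
Ctsd (chr7:142387908-142387937, minus strand): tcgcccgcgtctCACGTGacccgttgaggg
Ctsd (chr7:142388048-142388077, minus strand): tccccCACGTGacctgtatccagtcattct

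The 8 arrays were alike in brightness, with median intensities between 102 and 109 and between 10285 and 10512 probes per array at a detection p-value under 0.01. Of 9 smooth muscle markers on the array 6 were detected. Acta2 was among them, and its log2 signal rose by 0.40 with the mimetic (limma adjusted p = 2.14e-05), whereas Cnn1, Myh11 and Myocd were not detected, and Tagln was detected on the 4 moR-21 arrays and on 0 of 4 control arrays. Mean Tagln signals were 6.74 in the controls and 6.94 with the mimetic, both near the background. Its control level is only an upper bound, and the moR-21 mean was 1.08-fold above that bound. Tagln was counted as detected through its moR-21 arrays alone. Des was at -0.38 (limma adjusted p = 8.60e-05), and of the 6 markers 3 were higher and 3 lower, with a median log2 fold change of 0.02. The dimmer Acta2 probes rose by more, by 0.64, 0.73 and 0.81. The summed normalized intensity of the detected smooth muscle markers was 10053 to 10459 in the controls and 12835 to 13833 with the mimetic. Acta2 made up most of this sum. One label field names the cells as endothelial, and the others name smooth muscle. Of 10 endothelial markers on the array 1, Vwf, was detected.

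The question was whether the cathepsin transcripts changed when moR-21 was supplied. Ctsa (at 1 of 5 probes), Ctsh and Ctsf had higher signals with the mimetic in all 3 samples than in any control sample, by log2 fold changes of 0.51, 0.44 and 0.35. Ctsl was detected on the control arrays alone. Ctsb, Ctsd, Ctsk and Ctsz overlapped between the treatments, and Ctsc and Ctss were not detected. Of the 8 cathepsins tested, 2 were called higher (Ctsa and Ctsh) and 0 lower. A call needed a fold change over 1.3, which is 0.38 on the log2 scale, and a limma adjusted p under 0.002 over the 11651 probes detected on at least 1 array. Without an adjustment 3 members were higher and 1, Ctsl, was lower at a p under 0.05. The share of all genes at that p was not counted, so this number has nothing to be set against. Ctsl also entered the fit through its control arrays alone. Among all 8727 genes read in the same way, each at its brightest detected probe, 3.41% were called higher and 4.38% lower, and 46.3% had groups that did not overlap. The call for Ctsa held at 1 of its 5 probes. The other 4 did not rise, but 3 of these were dim and could show little change. That probe is the brightest over the 6 samples through its moR-21 values, and in the controls another was brighter. With each gene read at the probe brightest in the controls, or as the mean of its detected probes, 1 cathepsin, Ctsh, was called. The median log2 fold change of the 8 members was 0.09, beside 0.006 over all genes, but it was 0.02 and 0.03 with those readings. Without moR-21 samples 1, 2 and 3 in turn the median was 0.03, 0.00 and -0.01, with Ctsa then read at another probe.

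**Figure D1:**
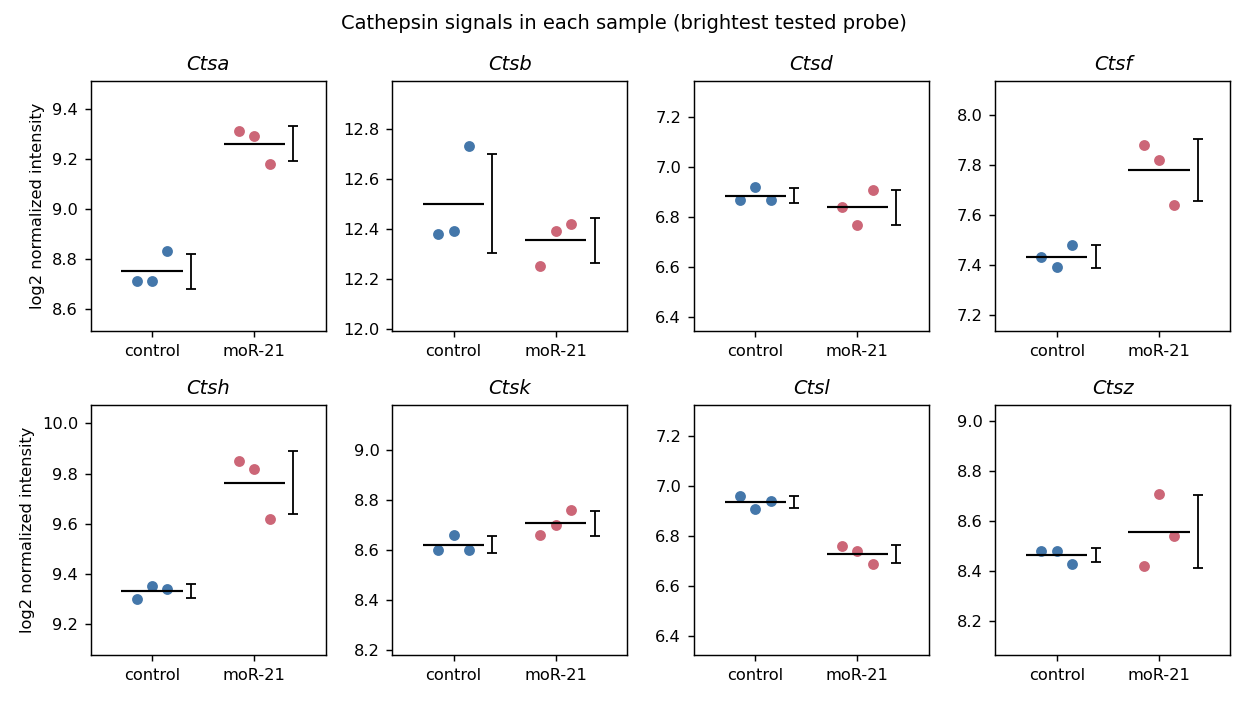
Signal of the 8 tested cathepsins, each at its brightest detected probe, with log2 quantile normalized intensity on the vertical axis, 3 control and 3 moR-21 samples as points, horizontal lines at the means and bars of 1 SD on either side. Every panel spans the same log2 range, and the treatments separate for Ctsa, Ctsf, Ctsh and Ctsl.

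Ctsa encodes cathepsin A and lies on chr2:164832872-164841032 of GRCm38.p6. At ILMN_2669714, the probe brightest over the 6 samples, the log2 normalized intensity was 8.71, 8.71 and 8.83 in control samples 1 to 3 and 9.31, 9.29 and 9.18 in moR-21 samples 1 to 3. All moR-21 samples were above all control samples. The log2 fold change was 0.51 (SE 0.054, limma adjusted p = 6.56e-06), a fold of 1.42. When this probe was followed through the 16 refits that changed the normalization, filter, arrays, model or samples, it was called higher in 16, with log2 fold changes between 0.48 and 0.61. The probe is the brightest only through its moR-21 values, so these refits do not bear on the choice of probe.

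The other probes of Ctsa gave another picture. ILMN_1213617, which the table assigns to the same transcript variant 2, read 9.08, 9.02 and 9.05 in the controls and 8.84, 8.89 and 8.80 with the mimetic. Here all moR-21 samples were below all control samples. The log2 fold change of this probe was -0.21 (SE 0.047, limma adjusted p = 0.00361), which did not pass either cutoff. The log2 fold changes of this pair of probes thus differed by 0.72, which is a description, since the pair was singled out for moving apart. The 3 dimmer probes had log2 fold changes of -0.00 (ILMN_2681631, variant 2), -0.04 (ILMN_3120827, variant 1) and -0.09 (ILMN_3045359, variant 1), with limma adjusted p-values of 0.999, 0.616 and 0.175. These 3 probes had control means of 6.80, 6.90 and 7.11, at or near the background, where a change would be compressed. The mean of all detected Ctsa probes, which takes in these dim probes, differed by 0.04 on the log2 scale (limma adjusted p = 0.522). The probe pair ILMN_2669714 and ILMN_1213617 was also close in mean signal, and when any 1 moR-21 sample was left out ILMN_1213617 became the brightest, so that the gene then read between -0.23 and -0.18. What sets these probes apart was not tested, and a rise was measured at 1 of the 5 Ctsa probes.

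**Figure D2:**
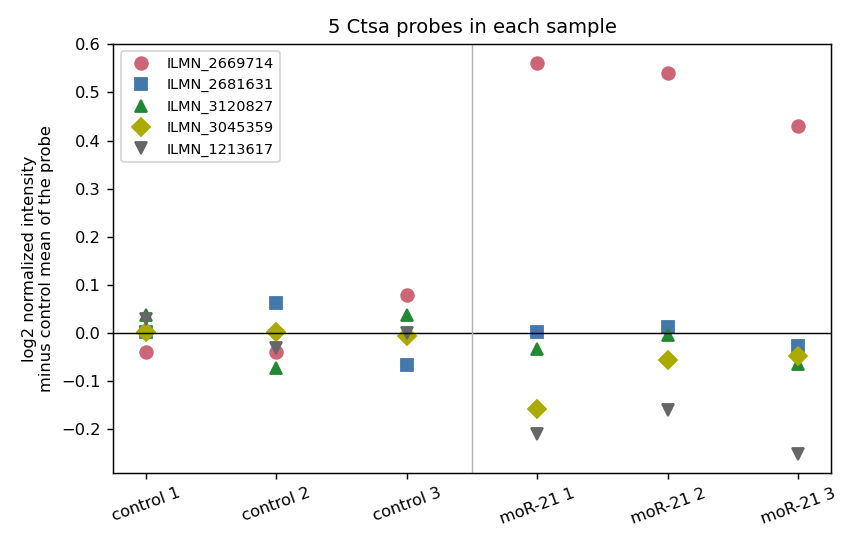
Signal of the 5 Ctsa probes in each of the 6 samples, as log2 normalized intensity minus the probe's own mean over the 3 control samples. ILMN_2669714 lies above its control values in the 3 moR-21 samples, ILMN_1213617 and ILMN_3045359 lie below theirs, and the remaining probes stay near 0.

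Ctsh encodes cathepsin H, a cysteine protease that works mainly as an aminopeptidase, and lies on chr9:90054267-90076095. Its single probe read 9.30, 9.35 and 9.34 in the control samples and 9.85, 9.82 and 9.62 in the moR-21 samples. The groups did not overlap, and moR-21 sample 3 was the lowest of its group. Its repeat arrays read 9.70 and 9.55, both above every control sample. Ctsh was thus higher by 0.44 on the log2 scale (SE 0.059, limma adjusted p = 5.89e-05), a fold of 1.35. The rise was called in 15 of 16 refits. With normexp background correction it was 0.49, and its adjusted p of 0.00294 missed the cutoff.

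Ctsf encodes cathepsin F, a cysteine protease with an unusually long propeptide, and lies on chr19:4855165-4860918. Its signal was 7.43, 7.39 and 7.48 in the controls and 7.88, 7.82 and 7.64 with the mimetic. As for Ctsh, the groups did not overlap and moR-21 sample 3 was nearest to the controls. Ctsf was higher by 0.35 on the log2 scale (SE 0.060), and its limma adjusted p of 4.36e-04 passed the cutoff while the fold of 1.27 did not. Without moR-21 sample 3 the log2 fold change was 0.42 and Ctsf was called. Without moR-21 samples 1 and 2 it was 0.30 and 0.33, and the limma adjusted p of 0.00244 and 0.00233 missed the cutoff as well. The adjusted p also missed its cutoff without control sample 1 or 2, and with median scaling or no detection filter. Normexp background correction raised the log2 fold change to 0.61 with an adjusted p of 0.00303, which again missed the call.

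Ctsl encodes cathepsin L, a broad endopeptidase of the lysosome, and lies on chr13:64361890-64370772. Its signal was 6.96, 6.91 and 6.94 in the controls and 6.76, 6.74 and 6.69 with the mimetic. The probe was detected on 4 of 4 control arrays and on 0 of 4 moR-21 arrays, so that the moR-21 level is only an upper bound. The bound, from the lowest signal of any detected probe on each moR-21 array, was 6.83. The control mean of 6.94 was 1.08-fold above it. Repeat arrays of a sample differed by 0.09 and 0.14 at this probe, so the margin is of the size of differences between arrays. The fitted log2 fold change was -0.21 (SE 0.045, limma adjusted p = 0.00273), which passed neither cutoff. With normexp background correction it was -0.71 (limma adjusted p = 3.62e-04). Ctsl entered the fit through its control arrays alone, and neither fitted value is a measured size, since the moR-21 signal was not above background.

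**Figure D3:**
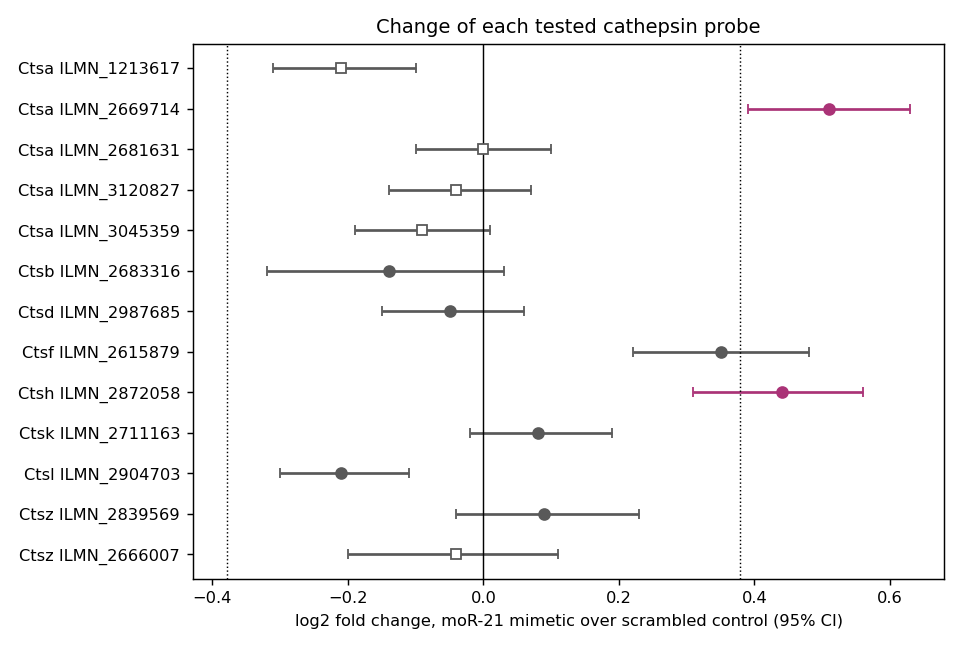
Log2 fold change of the moR-21 mimetic over the scrambled control for the 13 tested cathepsin probes, with 95% confidence intervals from the limma fit. Filled circles are the brightest probe of a gene, open squares are dimmer probes, purple marks the called probes, and the dotted lines stand at a fold change of 1.3 in either direction.

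Ctsb encodes cathepsin B, a cysteine protease with endopeptidase and peptidyl-dipeptidase activity, and lies on chr14:63122462-63145923. It read 12.38, 12.39 and 12.73 in the controls and 12.25, 12.39 and 12.42 with the mimetic. Control sample 3 stood above the other 5 samples, and the groups overlapped. Between the group means the log2 difference was -0.14 (SE 0.082, 95% confidence interval -0.32 to 0.03, limma adjusted p = 0.204). Leaving out 1 sample at a time gave values between -0.20 and -0.03, the latter without control sample 3.

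Ctsd encodes cathepsin D, the main aspartic protease of the lysosome, and lies on chr7:142375910-142387827. Its probe was dim, with 6.87, 6.92 and 6.87 in the controls and 6.84, 6.77 and 6.91 with the mimetic. It was detected on 3 of 4 arrays of each treatment, and the groups overlapped. The log2 fold change was -0.05 (95% confidence interval -0.15 to 0.06, limma adjusted p = 0.518), and a change in a signal so near the background would be compressed on this scale.

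Ctsk encodes cathepsin K, a collagenase known from osteoclasts, and lies on chr3:95499210-95509387. It read 8.60, 8.66 and 8.60 in the controls and 8.66, 8.70 and 8.76 with the mimetic. The lowest moR-21 sample equalled the highest control sample at this precision. The log2 fold change was 0.08 (95% confidence interval -0.02 to 0.19, limma adjusted p = 0.202).

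Ctsz encodes cathepsin Z, a carboxypeptidase that can bind integrins, and lies on chr2:174427494-174439039. Its brighter probe read 8.48, 8.48 and 8.43 in the controls and 8.42, 8.71 and 8.54 with the mimetic. The moR-21 samples fell on both sides of the controls, and the log2 fold change was 0.09 (95% confidence interval -0.04 to 0.23, limma adjusted p = 0.281). The repeat arrays of moR-21 sample 3 differed by 0.30 at this probe, which was more than the difference between the treatments. At the dimmer probe ILMN_2666007 the log2 difference was -0.04 (limma adjusted p = 0.690).

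Ctsb, Ctsk and Ctsz were detected on all 8 arrays, and their intervals at the brightest probe left out a change of 1.3-fold in either direction on the scale without background correction. No such limit holds for Ctsd, whose signal was near the background.

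Ctsc encodes cathepsin C, the dipeptidyl peptidase that activates granule proteases of leukocytes, and Ctss encodes cathepsin S, which trims the invariant chain in antigen-presenting cells. Ctsc lies on chr7:88278024-88315861 and had 3 probes, and Ctss lies on chr3:95526786-95556405, next to Ctsk, and had 1 probe. All 4 probes were at a detection p-value of 0.01 or more on each of the 8 arrays, so they were not well above background and were not tested. The macrophage markers Ptprc, Itgam and Emr1 were not detected on any array either, and 4 of 12 macrophage markers on the array were detected. Of these, Lyz and Lyz2 were called higher with the mimetic, at log2 fold changes of 0.58 and 0.48 (limma adjusted p = 1.58e-06 and 1.79e-06), while Cd14 and Csf1r were at -0.27 and -0.01. The summed normalized intensity of the detected macrophage markers was 1987 to 2056 in the controls and 1963 to 2048 with the mimetic. Cd14 made up most of this sum, so it does not describe Lyz and Lyz2. The part of such cells in the rise of Ctsh and of the Ctsa probe was not tested. In RNA from a whole culture, fewer cells of a type and less RNA per cell cannot be told apart. Upk3b, a mesothelial marker, fell by 1.24 (limma adjusted p = 2.51e-10), and the summed intensity of the 2 detected mesothelial markers was 749 to 804 in the controls and 402 to 423 with the mimetic. Upk3b carried this fall, and the other marker, Krt19, was at -0.13 (limma adjusted p = 0.115). Their part in the cathepsin values was not tested either.

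Other genes of the lysosome were read in the same way, together with cathepsin inhibitors, sorting genes and regulators that act outside it. Of 85 tested genes in these 8 lists, named the lysosomal lists here, 7 (8.24%) were called lower and 2 (2.35%) higher. Over all genes these shares were 4.38% and 3.41%. By sign alone 59 were lower and 26 higher, where 51.8% of all 8727 genes were higher, and their median log2 fold change was -0.09.

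Among the inhibitors, Cst3 (cystatin C) and Cstb (cystatin B) had log2 fold changes of 0.04 and -0.08 (limma adjusted p = 0.667 and 0.367). Of the 3 cystatins tested, 0 were called. Lgmn, the legumain that processes several cysteine cathepsins, was at 0.01 (limma adjusted p = 0.922). Psap, the precursor of the saposins and a cathepsin substrate, was at -0.02 (limma adjusted p = 0.864).

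Of the 5 processing and complex partners tested, 0 were called. Glb1, the beta-galactosidase that cathepsin A protects, read 10.46, 10.35 and 10.39 in the controls and 10.03, 10.12 and 10.08 with the mimetic, a log2 difference of -0.32 (limma adjusted p = 1.49e-04) whose fold of 1.25 missed the cutoff. Neu1, the neuraminidase of the same complex, was at -0.15 (limma adjusted p = 0.0437), and its groups overlapped.

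Of the 16 tagging and sorting genes tested, 1 was called lower and 1 higher. Sort1, the sorting receptor sortilin, read 9.59, 9.55 and 9.54 in the controls and 8.59, 8.40 and 8.51 with the mimetic, a log2 difference of -1.06 (limma adjusted p = 3.67e-09). A dimmer Sort1 probe fell by 0.96, and another pair of dimmer probes were at -0.00 and 0.03. The mannose 6-phosphate receptors that carry cathepsins were not called, with M6pr at -0.28 (limma adjusted p = 0.00512) and Igf2r at 0.11 (limma adjusted p = 0.122). Vps29, a subunit of the retromer that recycles sorting receptors, rose by 0.39 (limma adjusted p = 1.05e-04), a call held under 13 of 20 alternatives and lost without control sample 1 or moR-21 sample 3.

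The proton pump that acidifies the lysosome had 2 of 15 tested subunits called lower and 0 higher. Atp6v1b2, a subunit of the catalytic domain, fell by 1.05 (limma adjusted p = 3.56e-09), and Atp6ap1, an accessory subunit, fell by 0.38 (limma adjusted p = 3.22e-05). The Atp6v1b2 call held under all 20 alternatives. The Atp6ap1 call held under 12 and was lost without control sample 1 or 3, without moR-21 sample 1 or 2, and with normexp background correction or median scaling. Of 16 membrane proteins and transporters, Lamp2 and Ostm1 fell by 0.66 and 0.52 (limma adjusted p = 1.39e-07 and 1.31e-05), and Tmem55b, a phosphoinositide phosphatase of the lysosomal membrane, rose by 0.43 (limma adjusted p = 2.54e-05). Lamp2 is a main glycoprotein of that membrane, and 1 of its 3 dimmer probes was also called lower. Among the hydrolases other than proteases, Ids, a sulfatase of glycosaminoglycan breakdown, fell by 0.38 (limma adjusted p = 8.38e-04), a call that held under 11 of 20 alternatives and was lost without control sample 1 or 2, without moR-21 sample 2 or 3, and with normexp background correction, median scaling or no detection filter. The glucuronidase Gusb fell by 0.44 (limma adjusted p = 8.17e-06). The dimmer Gusb probes were at -0.20 and -0.11 and were not called. Of the 3 regulators of lysosomal genes that were tested, 0 were called, and Tfeb was not among the genes tested.

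**Figure D4:**
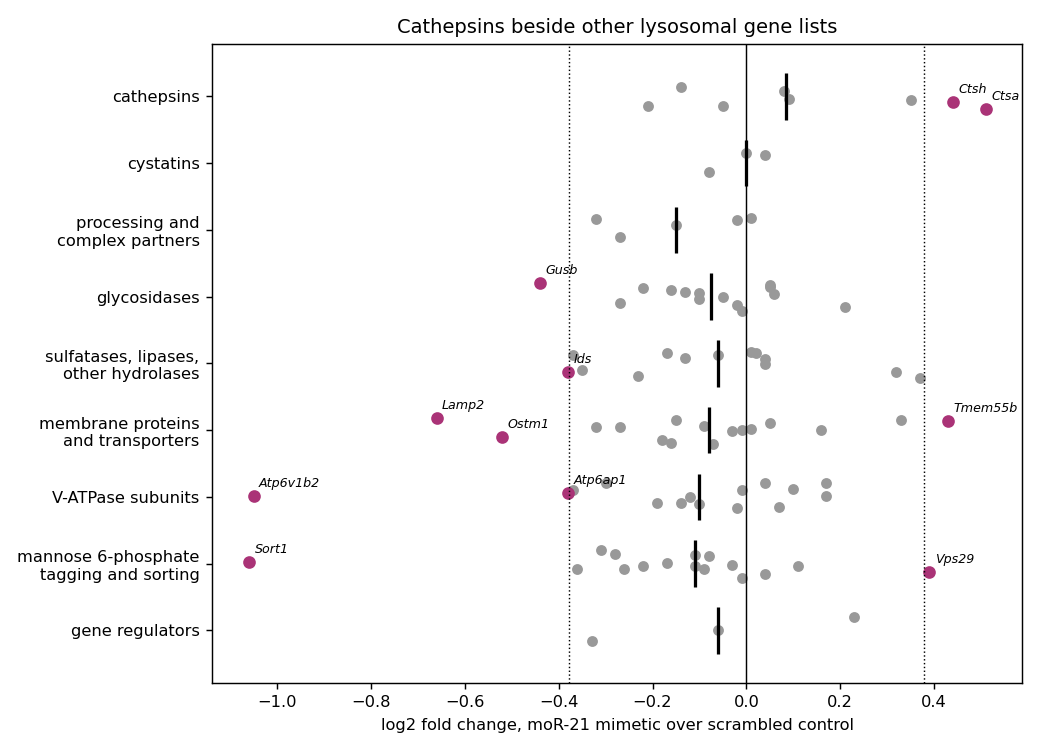
Log2 fold change of the moR-21 mimetic over the scrambled control for each tested gene at its brightest detected probe, by list, with called genes in purple and named, the list median as a vertical bar and dotted lines at a fold change of 1.3. The called cathepsins lie on the right, and 7 of the 9 called genes of the other lists lie on the left.

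Of 12 further cathepsin genes on the array, 1 was detected. It was Ctsr, a placental cathepsin, which was detected on 1 of 8 arrays and whose log2 signal differed by -0.04 between the treatments (limma adjusted p = 0.573).

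**Figure D5:**
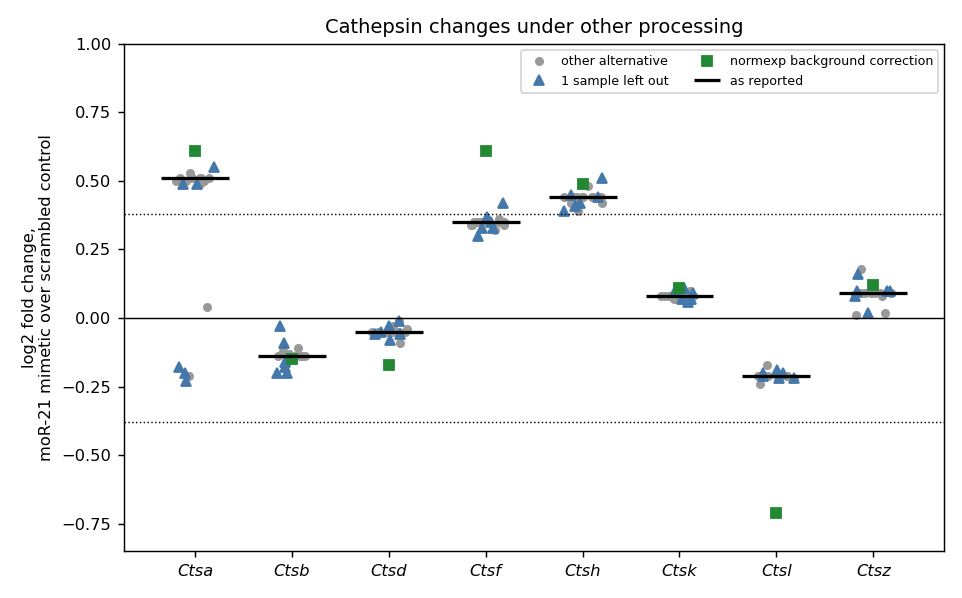
Log2 fold change of each tested cathepsin as reported (black bars) and under the alternatives, with normexp background correction as squares, 1 sample left out as triangles and the others as circles. Dotted lines stand at a fold change of 1.3. Ctsa moves below 0 when a moR-21 sample is left out, or its probe is chosen in the controls, because another probe is then its brightest, and Ctsf and Ctsl move most with the background correction.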

How the data were processed

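The authors deposited non-normalized probe intensities of the Illumina BeadChips with a detection p-value beside each intensity. The labels name lumi, and the paper names quantile normalization, limma and a pair of array designs. Quantile normalization was run over the 8 arrays at once, the values were log2 transformed, and repeat arrays of a sample were averaged. A linear model for the treatments was then fitted with limma (lmFit, eBayes) to the 11651 probes that at least 1 array detected, detection being a p-value under 0.01, and the p-values were adjusted by Benjamini-Hochberg. Cutoffs were those of the paper, namely an adjusted p under 0.002 together with a fold change over 1.3. No background was subtracted, which compresses changes of dim probes. A gene's value is that of the detected probe with the highest mean log2 signal, and every cathepsin probe is given. Positions and sequences come from RefSeq tables of GRCm38.p6, in which all 10 symbols matched.

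The members and lists were chosen with earlier results of these data known. All 10 cathepsins were named, with the called genes of each lysosomal list (up to the 4 largest changes) and Lgmn, Psap, Glb1, Neu1, Cst3, Cstb, M6pr, Igf2r and Tfeb. Ctsr and the marker genes were named beside these. A gene of the lysosomal lists is not reported here, and the counts over the lists leave it out. The alternatives were normexp background correction (offset 16), median scaling, cyclic loess, detection on every array or no filter, array A alone, array B in its place, 8 arrays with duplicateCorrelation, eBayes with trend and robust, a replicate block, each sample left out, an adjusted p under 0.05, a fold change over 1.5 and the mean of all detected probes. Following each probe through all refits, and reading each gene at the probe brightest in the controls, were added after seeing the data. The fit was tested on simulated data. Software was R 4.3.3, limma 3.58.1, Python 3.11.15, pandas 2.3.3, numpy 2.4.6, scipy 1.17.1 and matplotlib 3.10.9.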

Additional observations from a re-analysis of the deposited data

How the results depend on the processing

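The count of 2 called cathepsins was 0 at a fold change over 1.5, 1 with the mean of all detected probes, 1 with the probe brightest in the control samples (added after seeing the data, Ctsa then -0.21), and between 1 and 2 when samples were left out, with 1 without moR-21 sample 1 or sample 2. Ctsa read -0.20, -0.23 and -0.18 without moR-21 samples 1, 2 and 3, since ILMN_1213617 then became its brightest probe, and the highest value with a sample left out was 0.55. Without moR-21 sample 3 the 2 called cathepsins were Ctsh and Ctsf, not Ctsa. With normexp background correction the 2 were Ctsa and Ctsl, not Ctsh. The 7 genes of the lysosomal lists called lower became 3 at a fold change over 1.5 and 5 to 8 when samples were left out. The 2 called higher became 0 with normexp background correction and at a fold change over 1.5, 1 with cyclic loess, with array B in place of A and with the mean of probes, and 1 to 2 when samples were left out, with 1 without control sample 1. The causes were not tested. Ctsd and Ctsl had no value when detection on every array was required. Same-numbered samples had correlations of 0.187, 0.0441 and 0.0597 of their deviations, and different-numbered samples between -0.129 and 0.0693. These values do not settle whether the numbers pair the samples. The main fit used no pairs, since the paper's methods describe none for the arrays. With a replicate block 2 cathepsins were called, and 7 genes of the lysosomal lists were called lower. Dim signals limit what can be said of Ctsd and Ctsl.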
